A study of Mus musculus with 12 samples.

Results

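The genes described are the replication-dependent histone genes of the mouse, taken as every gene of the deposited count table whose symbol begins with Hist1h, Hist2h, Hist3h or Hist4h. The rule found 70 members among the 55376 gene symbols, and 32 of them reached at least 1 CPM (a count scaled to a library of 1000000) in at least 4 of the 12 samples and were tested, among 17716 tested genes in all. By histone class, 4 of 6 linker histone H1 genes, 6 of 20 H2A genes, 8 of 19 H2B genes, 5 of 12 H3 genes and 9 of 13 H4 genes passed this filter. By symbol, 26 of 56 Hist1 members on chromosome 13 passed, as did 3 of 10 of the Hist2 cluster on chromosome 3, 2 of 3 of the Hist3 cluster on chromosome 11 and the 1 Hist4 gene on chromosome 6. Of the Hist1 members, Hist1h2al lies apart at chr13:51202727-51203065, outside the cluster, where the others end by chr13:23934851. GENCODE M21 lists Hist1h2al, Hist1h2aj and Hist3h2bb-ps as pseudogenes, and none of them passed. The filter was applied over all 12 samples, so a member could pass it through the genotype in which it was highest, and counts over the members that passed are given as descriptions.

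RNA-Seq was performed on oligodendrocytes sorted by FACS from the brains of C57BL/6 mice at postnatal day 40, as live cells positive for O1, a galactolipid antigen of differentiated oligodendrocytes, and negative for the leukocyte marker CD45. Each genotype had 4 samples, and each sample pooled 2 brains. The genotypes were WT, Cnp-Cre Jab1fl/fl (called Jab1 mutants) and, as double mutants, Cnp-Cre Jab1fl/fl p21CIP1-/-. The study's methods list the Jab1 and Cre lines as C57Bl/6J and the p21CIP1 null line as 129S6/SvEvTac, each backcrossed. Cre expressed from the oligodendrocyte gene Cnp deletes, in both mutants, Jab1 (Cops5), a subunit of the COP9 signalosome, and the double mutants also lack p21CIP1 (Cdkn1a), an inhibitor of cyclin-dependent kinases, in every cell of the body. No group carried the p21CIP1 deletion alone, and sorted cells can include cells that Cre did not reach or cells of other types.

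Replication-dependent histone genes supply the histones with which newly copied DNA is packed, and their transcription is coupled to S phase. H2A, H2B, H3 and H4 form the core of the nucleosome and H1 binds the linker DNA between nucleosomes. Most of these mRNAs do not end in a poly(A) tail but in a conserved stem-loop, which the protein SLBP binds, while some of the genes can also give polyadenylated transcripts that run on past the stem-loop in cells that do not divide. The libraries were made with a kit that primes cDNA from poly(A), so the counts report on polyadenylated transcripts of these genes and the amount of the stem-loop form was not measured.

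The letters of the stem-loop, which are GG, any 2 letters, CTTTT, any letter, AG, any 2 letters and CC, were searched in the transcripts of GENCODE M21 on their own strand. They were found in 44 of the 70 members and in 38 of 55271 other genes (0.0688%), in 6 forms, which are shown because they mark where the usual histone mRNA ends. The examples below are on GRCm38, with the loop in capitals, at chr13:23621782-23621797 on the minus strand (Hist1h1e), chr13:23581950-23581965 on the plus strand (Hist1h4d), chr13:23561903-23561918 on the minus strand (Hist1h3e), chr13:22040966-22040981 on the minus strand (Hist1h4i), chr13:21735437-21735452 on the plus strand (Hist1h4j) and chr3:96220418-96220433 on the minus strand (Hist2h2ac).
Hist1h1e: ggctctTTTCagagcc
Hist1h3e: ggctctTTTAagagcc
Hist2h2ac: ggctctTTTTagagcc
Hist1h4d: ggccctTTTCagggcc
Hist1h4i: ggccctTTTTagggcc
Hist1h4j: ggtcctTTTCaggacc
The form of Hist1h1e was carried by 26 members, among them 3 H1, 10 H2A, 8 H2B and 5 H3 genes and 0 H4 genes. That of Hist1h3e was carried by 6 members and that of Hist2h2ac by 1. The 3 forms with other stem letters, carried by 7, 2 and 2 members, were found in H4 genes alone, and none of the 11 H4 genes with a stem-loop had the stem of the other classes.

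The GENCODE M21 gene models, used here for all lengths, differed in how far they ran past this stem-loop. The study's methods name another GENCODE release for the counting, whose models were not used here. In 22 members the M21 model ran on for more than 100 bases, in 22 it ended nearer to the loop, and in 26 the letters were not found in the model, 16 of the 70 models having no annotated 3′ UTR. For 20 of the 21 run-on members made of 1 exon that could be compared with RefSeq, the RefSeq gene ended 10 bases or fewer after the loop. Hist1h1e, at chr13:23620629-23622558, is 1 exon of 1930 bases that runs 1153 bases past its stem-loop, while the RefSeq gene H1f4 is 782 bases long. Hist1h1d, at chr13:23553262-23560686, has 7425 bases in this model, against 776 bases of the RefSeq gene H1f3. Of the 22 run-on members 18 (81.8%) passed the filter, against 8 of the 22 that ended near the loop (36.4%) and 6 of 26 without the letters (23.1%). Their median level was 3.28 CPM per kb of exon, against 0.976 and 0.275 CPM per kb in the other groups. These groups differ in more than the 3′ end. The median exon length was 1255, 483.5 and 408 bases, in the same order, and the filter did not correct for length. A median of 23.3%, 63.1% and 77.2% of 50-base windows were shared with a transcript of another gene, and near-identical copies can lose reads in counting.

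**Figure D1:**
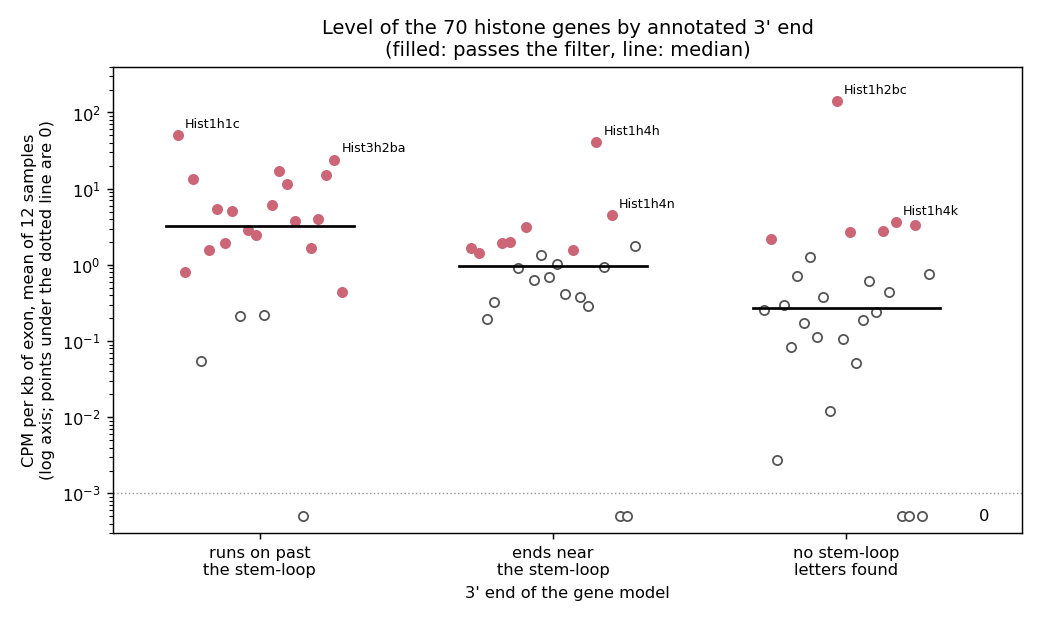
Mean level over the 12 samples of each of the 70 histone genes, in CPM per kb of exon on a log axis, by the 3′ end of its gene model. Points are genes (filled if they passed the filter) and lines are medians, and 6 genes at 0 in all samples are drawn under the dotted line. The medians step down from 3.28 to 0.976 and 0.275 CPM per kb, with Hist1h2bc at 141 far above the other genes without stem-loop letters.

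The promoters of the 3 most abundant H1 members are printed because these genes, neighbours in one cluster, stood apart from each other in the mutants. They are from RefSeq on GRCm38.p6 and cover 250 bases before to 50 bases after the annotated start, at chr13:23622509-23622808 on the minus strand for Hist1h1e (H1f4), chr13:23738557-23738856 on the plus strand for Hist1h1c (H1f2) and chr13:23554782-23555081 on the plus strand for Hist1h1d (H1f3). Capitals mark AAACACA (the H1 box), CCAAT and TATAAA, each searched on both strands, and a match on the other strand is printed in capitals too.
Hist1h1e: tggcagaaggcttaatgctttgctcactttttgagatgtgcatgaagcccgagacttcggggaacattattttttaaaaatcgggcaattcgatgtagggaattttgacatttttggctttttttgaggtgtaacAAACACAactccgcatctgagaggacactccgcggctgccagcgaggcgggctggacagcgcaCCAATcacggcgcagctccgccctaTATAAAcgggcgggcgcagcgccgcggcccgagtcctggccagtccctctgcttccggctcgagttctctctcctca
Hist1h1c: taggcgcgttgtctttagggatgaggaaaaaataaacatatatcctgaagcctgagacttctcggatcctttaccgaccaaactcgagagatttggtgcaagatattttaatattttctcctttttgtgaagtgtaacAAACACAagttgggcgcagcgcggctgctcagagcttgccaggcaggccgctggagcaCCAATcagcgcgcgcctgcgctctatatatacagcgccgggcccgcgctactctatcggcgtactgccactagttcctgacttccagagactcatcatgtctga
Hist1h1d: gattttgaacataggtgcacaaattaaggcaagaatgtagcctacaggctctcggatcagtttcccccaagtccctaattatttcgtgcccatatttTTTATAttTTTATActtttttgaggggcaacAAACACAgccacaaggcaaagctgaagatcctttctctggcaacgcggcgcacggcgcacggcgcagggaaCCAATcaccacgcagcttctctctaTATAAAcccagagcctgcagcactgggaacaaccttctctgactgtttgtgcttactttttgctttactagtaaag
All 3 promoters held the H1 box and CCAAT in the same order before the start. TATAAA was found downstream of CCAAT in those of Hist1h1e and Hist1h1d, with further matches on the other strand upstream of the H1 box in Hist1h1d. These letters were not in the window of Hist1h1c, which held tatatata downstream of CCAAT, letters that were not searched for. A promoter was listed for 61 members, with 62 promoters among 32851 in all. AAACACA stood in 5 of 6 H1 promoters and in 7.18% of all promoters, and CCAAT in 53 of 62 member promoters against 37.4% of all. CCAAT was in every listed promoter of the H1, H2A, H2B and H3 classes but in 3 of 12 H4 promoters. ATTTGCAT, the octamer, was in 7 of 17 H2A and 7 of 17 H2B promoters, in 0 of the H1, H3 and H4 promoters and in 1.74% of all, while TATAAA was in 35 of 62 against 13.6%. A match is a description of letters and not of binding.

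The 12 libraries held 61485556 to 153495112 counts, so 1 CPM was at least 61.5 counts, and for most members the samples differed by more than counting error. Nothing in the labels says that samples of a genotype were taken in separate experiments, so p-values measure the spread between these samples. Cops5 was at 46.3 to 133 CPM in WT, 44.98 to 89.03 CPM in Jab1 mutants and 44.2 to 90.4 CPM in double mutants, with overlapping groups, and Cdkn1a was at 15.98 to 85.3, 379 to 637 and 64.7 to 103 CPM in the same order. Counts per gene do not show which exons were deleted, so these levels do not check the alleles. Markers of mature oligodendrocytes (9 genes, Mbp and Mog among them) summed to 20395 to 46738 CPM in WT, 6167 to 28929.8 CPM in Jab1 mutants and 10162 to 27246 CPM in double mutants, with none at 0, and 5 of 9 fell in Jab1 mutants against WT. In the same comparison 14 of 15 microglial, 5 of 8 endothelial, 3 of 6 mural and 1 of 8 oligodendrocyte progenitor markers rose. Over all genes tested, 5.19% rose and 2.46% fell. Markers of astrocytes (9 genes) summed to 5457 to 13042 CPM in WT, 3438 to 8516 CPM in Jab1 mutants and 3958 to 10899 CPM in double mutants. Of these 9 genes, 0 rose or fell in Jab1 mutants against WT. With bulk RNA, fewer cells of a type and less RNA per cell cannot be told apart.

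Together the 70 members took 0.0257 to 0.0588% of the counts of a sample. Their sum was 407 ± 108 CPM in WT, 501 ± 69.7 CPM in Jab1 mutants and 400.2 ± 60.04 CPM in double mutants (SD, n = 4 each). Few genes made up most of it. Hist1h2bc, an H2B gene, held a median of 37.7% of member counts (24.7 to 47.9% across the 12 samples), and Hist1h2bc with Hist1h1c held a median of 52.8%. The 6 leading members, which also include Hist3h2a, Hist1h1e, Hist1h4d and Hist1h4h, held a median of 78.2%. At the other end, 27 members were above 3 counts in every sample, 8 never exceeded 3 counts, and 6 were at 0 throughout (Hist2h2ab, Hist2h2aa1, Hist2h2aa2, Hist2h2bb, Hist2h3b and Hist2h3c1). Of these 6, 5 share all of their 50-base windows with another gene, so a count of 0 does not show that they were silent.

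Per kb of exon, Hist1h2bc was highest at 141 CPM per kb over the 12 samples, followed by Hist1h1c at 50.7, Hist1h4h at 41.1, Hist3h2ba at 24.1, Hist1h4d at 17.3, Hist3h2a at 15.1 and Hist1h1e at 13.3 CPM per kb. In WT, the level of Hist1h2bc was 141 ± 61.4 CPM per kb and that of Hist1h1c 61.97 ± 17.7 CPM per kb (SD, n = 4). Hist1h4d at 10.3 ± 4.39 and Hist3h2a at 16.2 ± 2.46 CPM per kb stood in the reverse of their order over the 12 samples, and their WT samples overlapped. The order also depends on the length used. With the same counts divided by the length of the RefSeq transcript, Hist3h2a would stand at 63.7 CPM per kb and Hist1h1e at 32.9. Those counts can include reads past the RefSeq end, so these values are not levels of the RefSeq transcripts. Hist1h2bc has 2 exons, spans chr13:23684199-23692908 on the plus strand and held no stem-loop letters in its GENCODE model. No H3 gene was among the high ones, the highest per kb being Hist1h3d at 2.84 CPM per kb.

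The comparison of Jab1 mutants with WT asked which histone genes differ once Jab1 is lost from oligodendrocytes. One linker histone gene rose, Hist1h1e, about 5-fold, and 0 members fell. That is 1 of 32 members tested (3.13%), by edgeR's quasi-likelihood test at an adjusted p under 0.05, against 7.64% of all genes tested in either direction, 5.19% upward and 2.46% downward. The most abundant members, Hist1h2bc and Hist1h1c, were near their WT levels. The median log2 fold change of the 32 members was 1.12 (0.02 over all genes), with 23 of 32 above 0 (51% of all genes). The members were low and spread widely, with a median SE of 0.97 against 0.53 over all genes. Among the 8 members with a mean of at least 10 CPM, 6 were above 0, with a median of 0.56. An unadjusted p under 0.05 was reached by 5 members (22.5% of all genes), and DESeq2 called 3 members higher (9.52% of all genes) and 0 lower (5.66%).

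Hist1h1e encodes a linker histone, RefSeq H1f4. It stood at 11.5, 7.68, 4.52 and 15.4 CPM in WT replicates 1, 3, 5 and 6, at 73.5, 22.2, 44.7 and 59.9 CPM in Jab1-mutant replicates 1 to 4, and at 15.4, 15.9, 15.9 and 22.6 CPM in double-mutant replicates 1, 2, 3 and 5. Every Jab1-mutant sample was above every WT sample, with replicate 2 the lowest of them, while double-mutant replicates 1, 2 and 3 were close to the highest WT sample and replicate 5 was close to the lowest Jab1 mutant. The log2 fold change against WT was 2.36 (SE 0.48, edgeR adjusted p = 0.0146). It was called under every alternative run, with log2 fold changes from 2.11 to 2.66 and adjusted p from 3.51e-05 (DESeq2) to 0.0490 (without WT replicate 3). Part of its model, 395 of 1930 bases, overlaps the H2B gene Hist1h2be and Gm11398, and reads there cannot be assigned with certainty. Hist1h2be itself had a log2 fold change of -0.08 (SE 0.705).

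Within the Jab1 mutants, the samples stood in the same order by Hist1h1e as by summed endothelial markers. In Jab1-mutant replicates 1 to 4, the 8 endothelial markers (such as Cldn5 and Pecam1) summed to 5019, 719, 2574 and 3862 CPM. In WT replicates 1, 3, 5 and 6 these markers summed to 670.4, 567, 313 and 559 CPM, in another order than Hist1h1e. In double-mutant replicates 1, 2, 3 and 5 they summed to 614, 713, 2896 and 4681 CPM, with Hist1h1e at 15.4, 15.9, 15.9 and 22.6 CPM. Among double mutants replicate 5 was highest and replicate 1 lowest by both, but replicates 2 and 3 were nearly equal in Hist1h1e and far apart in endothelial markers. The 15 microglial markers summed to 2505, 1089, 1966 and 2592 CPM in Jab1 mutants, 134 to 292 CPM in WT and 405, 886, 17546 and 1942 CPM in double mutants. Double-mutant replicate 3 thus had the highest microglial sum of all, with Hist1h1e at 15.9 CPM, and replicate 5 an endothelial sum near the highest, with Hist1h1e at 22.6 CPM. The 6 mural markers summed to 253 to 454, 948 to 1658 and 281 to 1626 CPM in WT, Jab1 mutants and double mutants, and no marker of these 3 lists was at 0 in all samples. The part of these cells in the rise of Hist1h1e was not tested.

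The other H1 genes differed in level and in direction. Hist1h1c, the leading H1 member, was at 129, 62.4, 91.4 and 104 CPM in WT, 92.04, 51.6, 88.7 and 79.9 CPM in Jab1 mutants and 51.5, 28.6, 90.3 and 80.7 CPM in double mutants. The groups overlapped, and the log2 fold change of Jab1 mutants against WT was -0.31 (SE 0.31, edgeR adjusted p = 0.619). Hist1h1d was at 2.53, 4.503, 0.277 and 0.13003 CPM in WT and 19.6, 6.34, 12.04 and 8.82 CPM in Jab1 mutants. Its groups did not overlap either, but the WT samples spread widely, and the log2 fold change of 2.65 (SE 1.01) had an edgeR adjusted p of 0.143 and a DESeq2 adjusted p of 0.0252. Double mutants were at 7.39, 4.41, 0.399 and 5.12 CPM and spanned both ranges. Hist1h1b averaged 0.799 ± 0.658, 2.54 ± 2.17 and 1.51 ± 0.805 CPM in WT, Jab1 mutants and double mutants (SD, n = 4 each), and Hist1h1a and the testis gene Hist1h1t did not pass the filter.

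**Figure D2:**
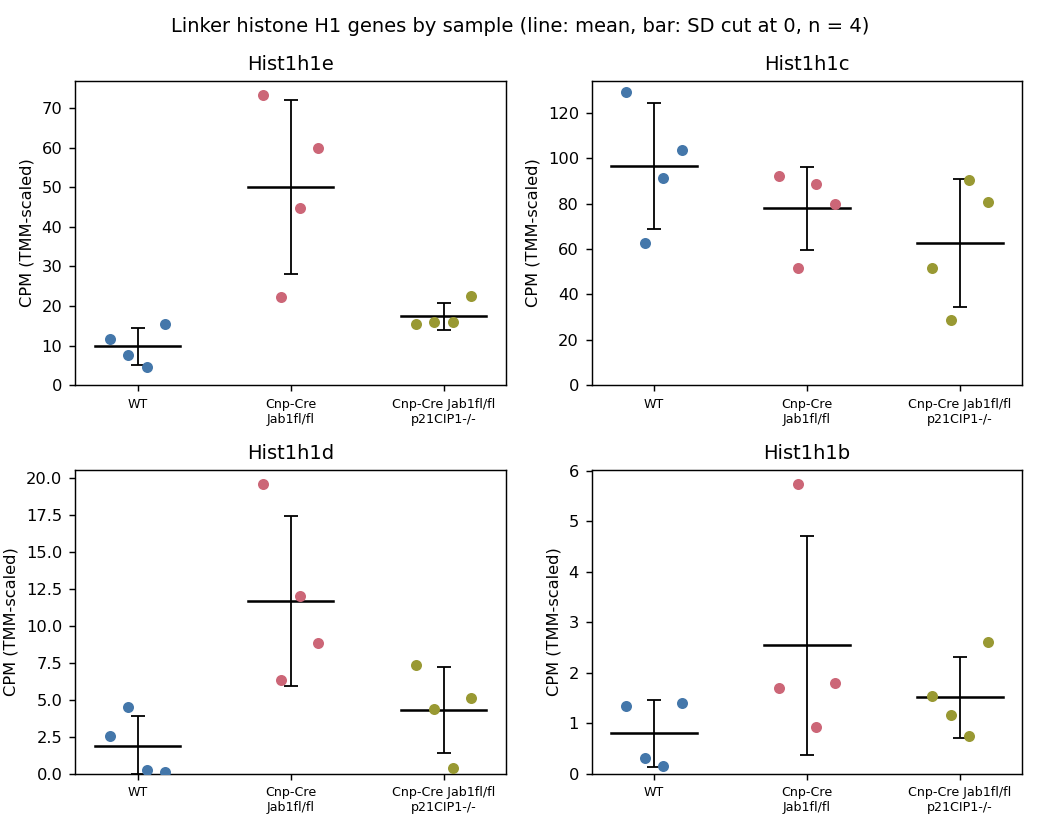
CPM of the 4 tested linker histone genes in each sample (points), with the mean and SD of the 4 samples of each genotype (SD bars are cut at 0). For Hist1h1e the Jab1-mutant samples lie at 22.2 to 73.5 CPM, above all WT samples, while the groups of Hist1h1c overlap.

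The H1 members were also expressed as shares of the counts of these 6 genes, which do not depend on the scaling between samples. The linker histone genes H1f0 and H1fx, listed here with the replacement variants, were not in this total. Hist1h1e took 7.99, 10.2, 4.69 and 12.8% in the WT samples, 39.3, 25.7, 30.4 and 39.6% in Jab1 mutants and 20.3, 31.5, 14.8 and 20.3% in double mutants. All 8 mutant samples were above all 4 WT samples. Hist1h1c took most of the rest, 88.4 ± 4.99% in WT, 55.6 ± 5.44% in Jab1 mutants and 70.3 ± 11.3% in double mutants (SD, n = 4 each). For each count of Hist1h1c there were 0.103 ± 0.0429 counts of Hist1h1e in WT, 0.620 ± 0.181 in Jab1 mutants and 0.328 ± 0.162 in double mutants, given as a description with no test. The H1 members summed to 145, 74.98, 96.3 and 121 CPM in WT, 187, 86.1, 147 and 152 CPM in Jab1 mutants and 75.8, 50.5, 108 and 111 CPM in double mutants, with overlapping groups. A share can change through either gene, so it does not show which of the pair moved.

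**Figure D3:**
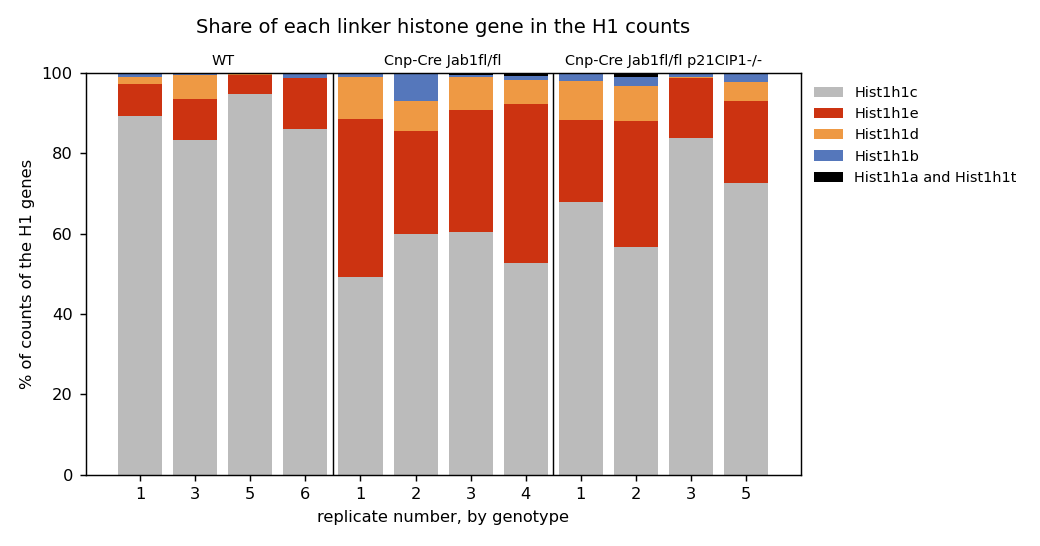
Percent of the counts of the 6 H1 members taken by each gene, 1 bar per sample, in the order WT, Jab1 mutants and double mutants. The Hist1h1e segment is at most 12.8% in WT and at least 25.7% in Jab1 mutants, with double mutants at 14.8 to 31.5%.

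Among the H4 genes, 8 of 9 tested had a log2 fold change above 0 in Jab1 mutants (51% of all genes), with a median of 1.44. By the edgeR test 0 were called (7.64% of all genes). Of the 9, Hist4h4 and Hist1h4n reached 1 CPM in no WT sample and passed the filter through mutant samples. The summed level of the H4 class was 47.7, 36.7, 35.5 and 45.9 CPM in WT, 42.8, 111, 74.7 and 112 CPM in Jab1 mutants and 108, 92.8, 38.4 and 56.9 CPM in double mutants. Replicates 2, 3 and 4 of Jab1 mutants were above all WT samples and replicate 1 was within the WT range, so the groups overlapped. Hist1h4i was at 8.14, 3.34, 2.12 and 6.05 CPM in WT and 7.67, 18.2, 18.3 and 13.6 CPM in Jab1 mutants, again with replicate 1 in the WT range. Its log2 fold change was 1.55 (SE 0.57, edgeR adjusted p = 0.128; DESeq2 adjusted p = 0.0498). Hist1h4d, with Hist1h4h one of the pair of H4 genes with the most counts, was at 12.8, 5.89, 10.3 and 17.8 CPM in WT and 12.5, 29.95, 14.9 and 47.2 CPM in Jab1 mutants (log2 fold change 1.16, SE 0.51, edgeR adjusted p = 0.206). Hist1h4h was at 19.5, 7.13, 16.1 and 12.1 and 11.6, 34.8, 12.6 and 36.8 CPM in the same groups, where replicates 2 and 4 were high and replicates 1 and 3 within the WT range. All H4 genes encode nearly the same protein, but their transcripts differ: Hist1h4d shares 10.2% of its 50-base windows with other genes, Hist1h4h 45.8% and Hist1h4n 85.6%.

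Hist1h4n was at 0.952, 0.872, 0.554 and 0.3901 CPM in WT, 1.04, 3.503, 2.94 and 3.42 CPM in Jab1 mutants and 1.83, 5.101, 1.24 and 1.15 CPM in double mutants. Both mutants were above WT in every sample, by a small margin, and the log2 fold change of Jab1 mutants was 1.98 (SE 0.905, edgeR adjusted p = 0.223). Hist4h4 was at 0.0362, 0.465, 0.0791 and 0 CPM in WT and 0.178, 0.241, 0.0294 and 5.57 CPM in Jab1 mutants, where replicate 4 alone made the mean. Hist2h4 overlapped between all genotypes, with 1.92 to 12.1 CPM in WT, 0.306 to 9.54 CPM in Jab1 mutants and 1.71 to 20.4 CPM in double mutants. Groups that did not overlap were found for 4 of 32 members upward (9.9% of all genes) and 0 downward (7.24%), namely Hist1h1e, Hist1h1d, Hist1h4n and Hist1h2bj. No WT sample of Hist1h4n or Hist1h2bj reached 1 CPM, so both passed the filter through mutant samples.

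**Figure D4:**
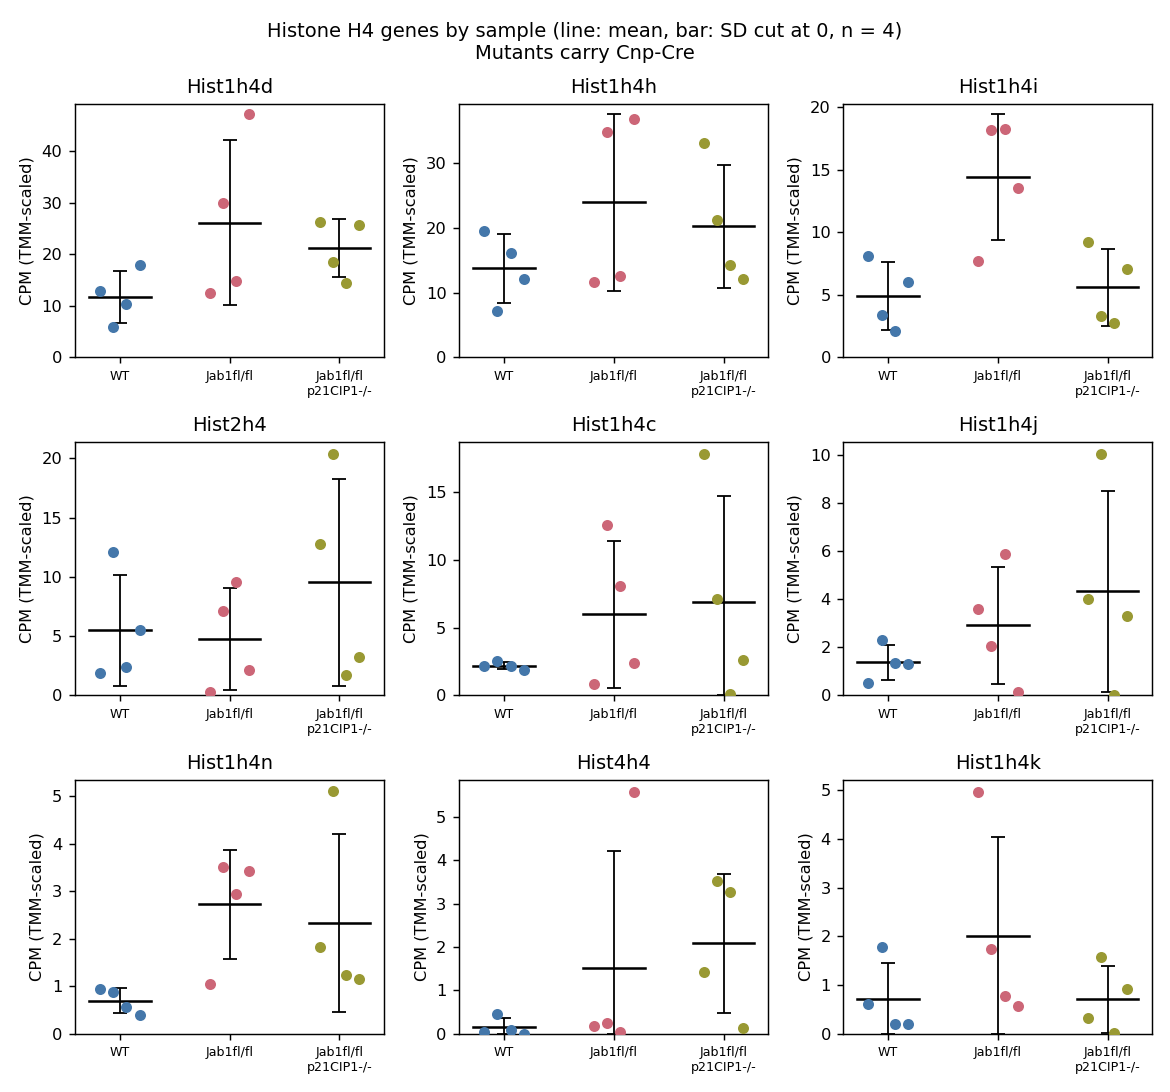
CPM of the 9 tested H4 genes in each sample (points), with the mean and SD of the 4 samples of each genotype (SD bars are cut at 0). For Hist1h4d, Hist1h4h and Hist1h4i, Jab1 mutants spread from within the WT range to above it, and Hist1h4n is above WT in all mutant samples.

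Core histone genes of the H2A, H2B and H3 classes held 0 calls in either direction in Jab1 mutants against WT (7.64% of all genes). Hist1h2bc, the most abundant member, was at 219, 62.8, 207 and 165 CPM in WT, 112, 199, 178 and 209.6 CPM in Jab1 mutants and 178, 111, 141 and 169 CPM in double mutants. WT replicate 3 was the lowest sample, and the log2 fold change against WT of 0.095 (SE 0.39) turned to -0.19 without it. Hist3h2a, the leading H2A gene, was at 37.1, 30.2, 30.8 and 41.2 CPM in WT and 18.3, 51.5, 23.9 and 21.3 CPM in Jab1 mutants, where replicate 2 was the highest of all samples and the other 3 were below WT. Its log2 fold change was -0.28 (SE 0.37, edgeR adjusted p = 0.725), and 708 of its 2146 bases overlap Trim17 and Gm44313. Hist2h2be, an H2B gene with a 3′ UTR of 2192 bases and no stem-loop letters, was at 14.7, 18.3, 5.94 and 12.9 CPM in WT and 7.11, 9.23, 7.18 and 0.0538 CPM in Jab1 mutants (log2 fold change -1.13, SE 0.96, edgeR adjusted p = 0.541). Hist1h2bj had a log2 fold change of 2.71 (SE 1.07, edgeR adjusted p = 0.157) at a level of 0.3702 ± 0.3697 CPM in WT and 2.43 ± 0.832 CPM in Jab1 mutants. Hist1h2ad had the largest decrease in fitted value, -1.34 (SE 1.04, edgeR adjusted p = 0.496), with 1.58, 1.38, 1.7999 and 0.954 CPM in WT and 0.217, 0.632, 0.147 and 1.25 CPM in Jab1 mutants.

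The H3 genes were low throughout. Their sum was 7.74 to 12.2 CPM in WT, 7.91 to 15.7 CPM in Jab1 mutants and 3.74 to 15.2 CPM in double mutants. Hist1h3d was at 5.82, 3.68, 4.43 and 5.89 CPM in WT, 4.17, 2.36, 8.14 and 1.802 CPM in Jab1 mutants and 1.25, 1.63, 0.0195 and 3.44 CPM in double mutants. Hist2h3c2 was at 0.6797, 1.26, 1.91 and 3.14 CPM in WT and 0.127, 3.095, 0.0147 and 0.0672 CPM in Jab1 mutants, so that only replicate 2 of the Jab1 mutants was within the WT range. Hist1h3i was at 0.0217 to 1.16, 0.0269 to 2.396 and 0.167 to 3.002 CPM in WT, Jab1 mutants and double mutants, and 87.6% of its windows are shared with other genes.

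**Figure D5:**
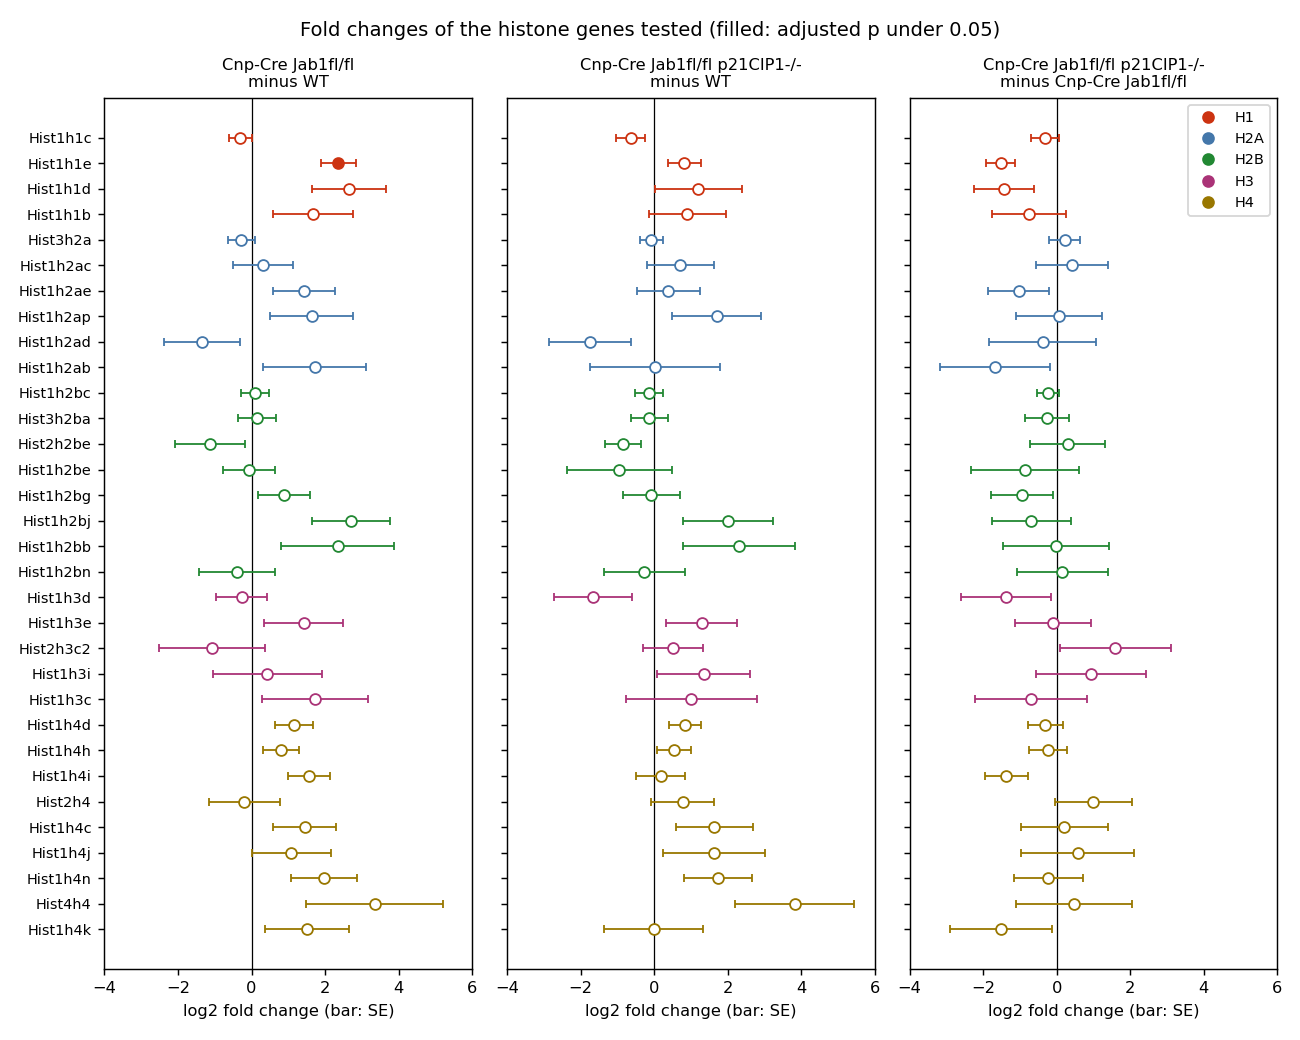
Fitted log2 fold change (points) with its SE (bars) of the 32 tested histone genes in each of the 3 comparisons, grouped by class and ordered by level within a class. A filled point has an adjusted p under 0.05, which Hist1h1e alone reached, in Jab1 mutants against WT, and bars are widest for the low genes.

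Double mutants were compared with WT to ask which members differ when both Jab1 and p21CIP1 are lost. Of the 32 members 0 were called (0.192% of all genes) and 1 had an unadjusted p under 0.05 (12.4% of all genes), by edgeR's quasi-likelihood test, and DESeq2 called 0 (4.87% of all genes). The median log2 fold change was 0.62, with 21 of 32 above 0 (50% of all genes), and the classes differed: 8 of 9 H4 genes but 2 of 8 H2B genes were above 0. The member with the unadjusted p under 0.05 was Hist4h4, at 1.43, 3.53, 3.26 and 0.136 CPM in double mutants, with a log2 fold change of 3.82 (SE 1.62, edgeR adjusted p = 0.365). Neither Hist4h4 nor Hist1h4n, both H4 genes, reached 1 CPM in any WT sample, so both passed the filter through mutant samples. Hist1h1e had a log2 fold change of 0.82 (SE 0.45, edgeR adjusted p = 0.497), with overlap at WT replicate 6. For Hist1h1c it was -0.63 (SE 0.39), for Hist2h2be -0.84 (SE 0.498), and for Hist1h4d, at 26.2, 18.4, 14.5 and 25.6 CPM in double mutants, 0.84 (SE 0.43). Groups did not overlap for Hist1h4n upward (1 of 32, 4.52% of all genes), and for Hist1h2ad and Hist1h3d downward (2 of 32, 3.58%). Hist1h2ad stood at 0.0534, 0.927, 0.156 and 0.586 CPM in double mutants, with a log2 fold change of -1.74 (SE 1.12, edgeR adjusted p = 0.563), and that of Hist1h3d was -1.66 (SE 1.07, edgeR adjusted p = 0.565). The comparison shares its WT samples with the one before.

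The effect of p21CIP1 loss on the Jab1 mutant was read from double mutants against Jab1 mutants. Here 0 of 32 members and 0% of all genes were called by edgeR's quasi-likelihood test, the smallest adjusted p of any gene being 0.0875, and DESeq2 called 0 members (0.491% of all genes). All 4 tested H1 genes had a log2 fold change below 0, and 11 of 32 members were above 0 (51.3% of all genes), with a median of -0.25. Hist1h1e had the smallest p of the members: the log2 fold change was -1.52 (SE 0.402, unadjusted p = 0.00314, edgeR adjusted p = 0.713), and the lowest Jab1-mutant sample, at 22.2 CPM, was just below the highest double mutant, at 22.6 CPM. An unadjusted p under 0.05 was found for 2 of 32 members (5% of all genes), the other being Hist1h4i, at 9.24, 3.32, 2.78 and 7.07 CPM in double mutants (log2 fold change -1.36, SE 0.59, edgeR adjusted p = 0.968). Hist1h1d had -1.43 (SE 0.81). In the other direction stood Hist2h4 with 0.996 (SE 1.04), Hist2h3c2 with 1.5996 (SE 1.52) at 3.28, 2.33, 1.38 and 3.06 CPM in double mutants, and Hist1h3i with 0.93 (SE 1.496). For 0 members did the groups not overlap (1.22% of all genes upward and 1.99% downward). So Hist1h1e was called against WT in Jab1 mutants and not in double mutants, and the difference between the mutants did not pass the test.

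Members varied more between samples than other genes, and this went with their low level. Within genotypes the coefficient of variation had a median of 71.2% over the 32 members and 47.9% over the other 17684 tested genes. Among genes at 20 CPM or more it was 32.3% in 4 members and 34.5% in others, at 5 to 20 CPM it was 49.3% in 8 members and 52.4% in others, and under 5 CPM it was 77.9% in 20 members and 84.7% in others. At each of these levels the median of the members was below that of the other genes.

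The factors that make histone mRNA were not called in any comparison (0 of 18 tested). Over all genes edgeR called 7.64% in Jab1 mutants against WT, 0.192% in double mutants against WT and 0% between the mutants. In Jab1 mutants, 8 of 18 were above 0 (51% of all genes). Npat, the coactivator of histone gene transcription, averaged 60.98 ± 15.8 CPM in WT, 32.3 ± 10.02 CPM in Jab1 mutants and 38.5 ± 15.4 CPM in double mutants (SD, n = 4 each), with a log2 fold change of -0.91 (SE 0.33, edgeR adjusted p = 0.125) in Jab1 mutants. Casp8ap2, which is required with Npat for histone transcription, averaged 33.8 ± 9.56, 68.7 ± 13.6 and 52.8 ± 22.2 CPM (log2 fold change 1.02 in Jab1 mutants, SE 0.302, edgeR adjusted p = 0.063999). All 4 values of Casp8ap2 in Jab1 mutants (56.2 to 82.4 CPM) were above those in WT (24.3 to 44.7 CPM).

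Replacement variants, histones made for the most part outside S phase and from polyadenylated mRNA, were called in 0 of 11 tested genes in each comparison. The shares of all genes called were 7.64, 0.192 and 0%, in the order of comparisons given above. In Jab1 mutants 9 of 11 were above 0 (51% of all genes), H2afy (macroH2A) having the smallest p with a log2 fold change of 0.72 (SE 0.295, edgeR adjusted p = 0.176). H2afy2 had 1.09 (SE 0.501, edgeR adjusted p = 0.226). Their sum, 909 to 1869.7 CPM in WT, was above that of all 70 replication-dependent genes in every sample, though this compares counts and not levels per length. Histone chaperones were called in 0 of 17 genes in each comparison, against the same shares of all genes. In Jab1 mutants 15 of 17 were above 0 (51% of all genes). Their sum was 913 to 995 CPM in WT, 1079 to 1739 CPM in Jab1 mutants and 800 to 1064 CPM in double mutants, given with no test. Chaf1b, a subunit of the assembly factor CAF-1, averaged 5.14 ± 3.53 CPM in WT and 18.4 ± 8.34 CPM in Jab1 mutants (log2 fold change 1.84, SE 0.6003, edgeR adjusted p = 0.09102). Atrx, which deposits the variant H3.3 with Daxx, had a log2 fold change of 1.13 (SE 0.396, edgeR adjusted p = 0.115).

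Of the genes of S phase and proliferation, 1 of 25 rose in Jab1 mutants (5.19% of all genes), 0 fell (2.46%), and 21 of 25 were above 0 (51% of all genes), with a median log2 fold change of 0.61. That gene was Mki67, a marker of cycling cells, at 7.03 ± 4.95 CPM in WT, 34.7 ± 12.3 CPM in Jab1 mutants and 18.96 ± 6.99 CPM in double mutants (log2 fold change 2.302, SE 0.53, edgeR adjusted p = 0.0253). In double mutants 0 of 25 were called against WT (0.192% of all genes) and 24 of 25 were above 0 (50% of all genes), with Mcm7, a subunit of the replicative helicase, having the smallest p (log2 fold change 1.14, SE 0.38, edgeR adjusted p = 0.255). The sum of the list was 411, 1053, 442 and 379.8 CPM in Jab1-mutant replicates 1 to 4, highest in replicate 2, where Hist1h1e was lowest and Hist1h1b and Hist3h2a were highest. It was 309 to 527 CPM in WT and 369 to 1113 CPM in double mutants, highest in replicate 5. The same pair of libraries had the highest sums of 9 neuronal markers, 757 and 745.8 CPM, against 153 to 331 CPM in the other 10 libraries. In each mutant 9 of 9 neuronal markers were above 0 against WT and 0 were called. Over all genes, 51 and 50% were above 0 and 7.64 and 0.192% were called, in Jab1 and double mutants. No neuronal marker was at 0 in all samples, and the part of these markers in the sums was not tested.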

How the data were processed

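RNA-Seq was performed on 12 samples of O1+ CD45- cells, 4 per genotype, and the sample labels gave the genotypes and replicate numbers. The authors deposited unscaled read counts for each symbol. Per the labels and methods, they prepared SMART-Seq v4 libraries, and paired-end reads went through Trimmomatic 0.32, STAR 2.5.3a (genome GRCm38) and featureCounts (GENCODE basic genes). Strand setting and treatment of reads with several matches are not given in the sources used here. No column was left out.

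CPM here are scaled by TMM factors from all 12 samples, and the filter used CPM of the library total. Genotypes were compared in pairs by the quasi-likelihood test of edgeR 4.0.16 under R 4.3.3. The SE of an edgeR log2 fold change was derived as its absolute value divided by the square root of the test's F statistic. Each fit took raw counts of 17716 genes in the 8 samples of a pair, p-values were adjusted by the Benjamini-Hochberg method, and calls required an adjusted p under 0.05. DESeq2 1.42.0, other normalizations and filters, 1 fit of all 12 samples, a replicate block and each sample left out in turn were the alternatives. The code was tested on simulated data. Samples with the same number did not deviate together (correlations of -0.104 to 0.0609), so the numbers were not taken to pair samples. No pair of samples of a genotype looked like a repeat of 1 library (lowest chi-square of counts, divided by its degrees of freedom, 159.8), and reads carry no molecular identifiers, so limits on counts cover counting error only.

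Exon lengths, shared 50-base windows and stem-loops came from GENCODE M21, not the release the authors name, and promoters from RefSeq (GRCm38.p6). A 0-count limit of 3 counts was used. Described in full are members with an adjusted p under 0.05, the 6 with the most counts, the 3 with the smallest p in each direction of each comparison, and the highest per kb of each class. Of each pathway list the text names called genes or those with the smallest p. Members and lists were chosen with earlier results of these data known. One oligodendrocyte marker is not reported here and was left out of its list.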

Additional observations from a re-analysis of the deposited data

Results flagged for a closer look

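In 66 groups of 4 samples, those of the members described in full and the summed classes, 6 samples stood farther from the other 3 than Dixon's 95% limit, where chance gives about 1 in 20. Hist1h1e was at 22.6 CPM in double-mutant replicate 5, against 15.4 to 15.9 CPM in the other double mutants. Hist1h4n was at 5.10 CPM in double-mutant replicate 2, against 1.15 to 1.83 CPM. In Jab1-mutant replicate 2, Hist2h3c2 was at 3.10 CPM, against 0.0147 to 0.127 CPM in the other Jab1 mutants, and Hist3h2a at 51.5 CPM, against 18.3 to 23.9 CPM. Hist4h4 was at 0.465 CPM in WT replicate 3, against 0 to 0.0791 CPM in the other WT samples, and at 5.57 CPM in Jab1-mutant replicate 4, against 0.0294 to 0.241 CPM.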

How the results depend on the processing

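Calls of members depended on the tool alone: DESeq2 called 3 members higher in Jab1 mutants against WT where edgeR called 1, adding Hist1h1d (log2 fold change 2.68) and Hist1h4i (1.55), and the cause was not tested. Counts of members called were otherwise the same under every setting run, in all 3 comparisons and both directions, with 1 to 1 higher and 0 to 0 lower in Jab1 mutants over the fits with 1 sample fewer. With the replicate block, 1 member was higher in Jab1 mutants (Hist1h1e, 2.61), 0 were called in the other comparisons, and the median log2 fold change of members in Jab1 mutants went from 1.12 to 0.53. WT and Jab1 mutants share only replicate numbers 1 and 3, so the block fold changes between them rest on those samples alone. Without filter, 46 of 64 members with counts were above 0 in this comparison, with a median of 1.27. Of the named members in this comparison, Hist1h1c changed sign under the replicate block (0.0086), as did Hist1h3d (0.33), and Hist1h2bc without filter (-0.011). Left-out samples gave -0.19 to 0.27 for Hist1h2bc, below 0 without WT replicate 3 or Jab1-mutant replicate 4. These 3 genes were not called under any setting, and the cause was not tested. With TMM-scaled CPM, 33 members would pass the filter. Dividing the same counts by RefSeq transcript lengths was an alternative chosen after seeing the data. The level per kb then moved by more than the spread between samples for 9 of the 16 members described in full. The counts can include reads past the RefSeq end. Low counts limit the H3 genes and the members under 5 CPM, whose spread leaves only large changes detectable.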
